A study of Mus musculus with 21 samples.

Results

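The 38 genes described here carry out glycolysis, the handling of its end products lactate and pyruvate, and the transcriptional response to low oxygen. They were listed by known function, with earlier results of these data known. They were taken by symbol from a table of 24458 genes, in which all 38 were found. By role they fall into 4 carriers of glucose and lactate, 15 glycolytic enzymes, 7 genes of the lactate and pyruvate branch, 3 genes of oxygen sensing and 9 other genes that hypoxia is known to induce. Of these, 37 had a mean level of at least 1 FPKM (fragments per kilobase, scaled for sequencing depth) over the libraries and were tested. The exception was Car9, a carbonic anhydrase of the cell surface, which lay between 0.308 and 1.11 FPKM.

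Glycolysis splits glucose into pyruvate, which is either reduced to lactate and exported or carried into mitochondria and oxidised. When oxygen is scarce, the prolyl hydroxylases encoded by Egln1 and Egln3 stop marking the transcription factor HIF-1 alpha (Hif1a) for destruction, and it switches on genes of glycolysis, glucose uptake, blood vessel growth and collagen hydroxylation, Egln1 and Egln3 among them. Pluripotent stem cells are known for a high rate of glycolysis, and both pathways change as they differentiate. HIF-1 alpha is controlled mainly at the protein level, which RNA does not show.

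The cells were mouse embryonic stem cell lines of a mixed 129/C57BL/6 strain, either wild type or knockout for Rinf, the gene also named Cxxc5, whose protein has a zinc finger that binds unmethylated CpG in DNA. They were left to differentiate as embryoid bodies, the aggregates formed in hanging drops. This series was sampled at days 0, 3 and 6, day 0 being its start, with no other treatment. Each of the 6 groups of genotype and day had 2 libraries, 12 in all. The replicates of a genotype are 2 independent lines per the labels, so the p-values measure the spread between these samples, line differences included, and an exact permutation test of 2 against 2 cannot give a p under 0.333.

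Depth, estimated from the steps of low values, was 16.7 to 35.9 M reads per library. At that depth 1 FPKM rests on 33.4 to 71.8 reads for an effective length of 2 kb. Effective length is the transcript length less a fixed number of bases. Cxxc5 stood at 25.1 to 52.3 FPKM in the wild type libraries and at 5.05 to 11.9 in the knockout libraries. The 8 pluripotency markers summed to 3350 to 3461 FPKM at day 0 in both genotypes. The wild type pair at day 6 stood apart: its replicate 1 had 15.0 FPKM summed over 8 markers of lateral and cardiac mesoderm and its replicate 2 had 183, against 334 and 496 in the knockout pair. Results that use this pair are given with that in view.

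The letters ACGTG and GCGTG are the core to which HIF binds. They were searched on both strands, where they read CACGT and CACGC, in the 250 bases before each annotated start. Some genes have several such starts. ACGTG is also part of CACGTG, the site of other factors. RefSeq promoters of the GRCm38.p6 assembly, the same build as mm10, were matched for 36 members, with 50 promoters. Either motif was present in 80.0% of them, in 56.3% of the promoters of the 9484 tested genes that were matched and in 38.6% of all promoters. ACGTG alone was present in 46.0%, 21.9% and 16.6%. By role, ACGTG was in 20.0% of the promoters of the lactate and pyruvate branch and in 32.0% of those of the glycolytic enzymes. It was in 77.8% of those of the other hypoxia targets, and in all 3 each of the carriers and of oxygen sensing. Promoters of the same gene can overlap, so they are not separate counts. A match is a description of the letters and shows no binding. The windows of 60 bases below come from 6 members that rose between days 3 and 6 in both genotypes. Of these, Ldha, Pgk1, Hk2 and Egln3 had also fallen to day 3 in both. The 6 were picked among members with a match, so they do not show how common a match is among members that rose. Gpi1 and Tpi1, which fell and then rose in both genotypes, had no match. The windows carry the matches in capitals. They lie at chr7:46845743-46845802 (plus strand) for Ldha, chrX:106186942-106187001 (plus) for Pgk1, chr6:82774474-82774533 (minus) for Hk2, chr10:59323236-59323295 (plus) for P4ha1, chr11:54100828-54100887 (plus) for P4ha2 and chr12:54204065-54204124 (minus) for Egln3. All are upstream of an annotated start and outside annotated exons. The windows of Ldha and P4ha1 lie inside the spans of these genes (46842274 to 46855627 and 59323197 to 59373304), before a later start.
Ldha: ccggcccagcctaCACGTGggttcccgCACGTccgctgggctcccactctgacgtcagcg
Pgk1: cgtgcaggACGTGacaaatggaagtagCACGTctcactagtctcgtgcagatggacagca
Hk2: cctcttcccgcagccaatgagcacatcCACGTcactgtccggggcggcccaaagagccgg
P4ha1: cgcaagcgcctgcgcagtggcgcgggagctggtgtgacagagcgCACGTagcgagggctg
P4ha2: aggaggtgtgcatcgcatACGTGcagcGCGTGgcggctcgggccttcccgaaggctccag
Egln3: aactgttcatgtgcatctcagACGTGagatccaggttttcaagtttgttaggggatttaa

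FPKM is a level per length, so the members can be ranked. Gapdh, the dehydrogenase in the middle of the pathway, and Pkm, the pyruvate kinase that ends it, had the highest mean levels over the 12 libraries, 1228 and 1217 FPKM. Their ranges, 1089 to 1405 and 1001 to 1560, overlapped. Ldha, which reduces pyruvate to lactate, followed at a mean of 954 FPKM, then Aldoa (aldolase) at 842, Pgam1 (phosphoglycerate mutase) at 507 and Pgk1 (phosphoglycerate kinase) at 478. The glucose carriers Slc2a3 and Slc2a1 had nearly the same mean, 288.4 and 287.9 FPKM. Eno2 (the enolase best known from neurons), Adm (the vasodilator peptide adrenomedullin) and Car9 were the lowest, with means of 2.89, 1.72 and 0.606 FPKM. Eno1 is uncertain: it ranged from 36.7 to 280 FPKM, and its near-identical copy Eno1b, with 504 to 690 FPKM, may have taken a part of its reads.

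The members as a group were high at day 0, lower at day 3 and high again at day 6. Their FPKM summed to 7919 and 7782 in the wild type at day 0, to 5463 and 5845 at day 3 and to 7863 and 9311 at day 6. In the knockout the sums were 7221 and 7059, then 5716 and 5349, then 9516 and 9366. In both genotypes the day 3 sums lay below those of the other days. The colour map of all members shows the fall to day 3, whose median was lowest among the other hypoxia targets (-1.61 in the wild type and -1.03 in the knockout), and that a few genes, Ldhb, Hif1a and Pfkm among them, moved the other way.

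**Figure D1:**
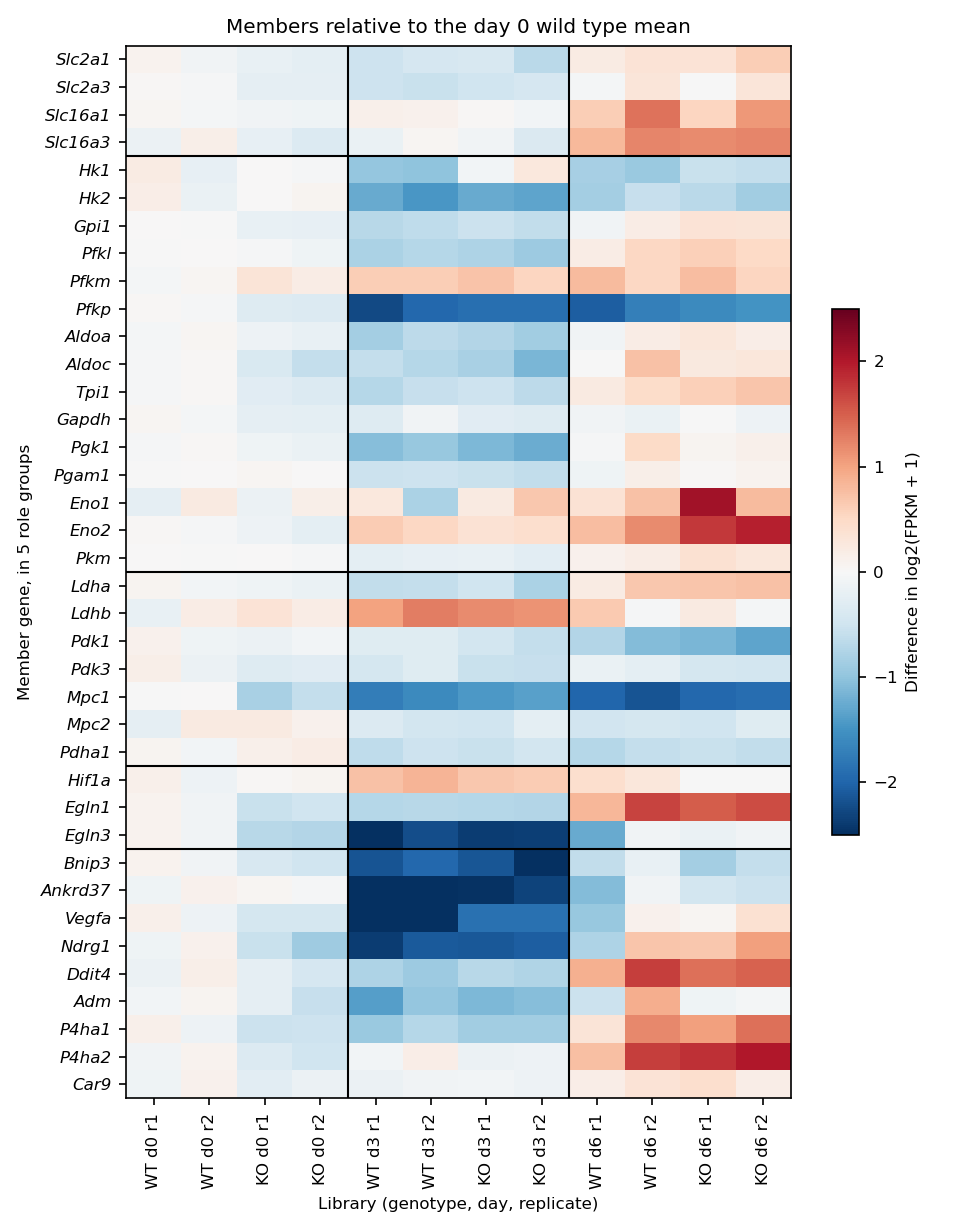
Difference in log2(FPKM + 1) of each of the 38 members (rows, separated by lines into transport, glycolytic enzymes, lactate and pyruvate branch, oxygen sensing and other hypoxia targets) from the mean of the 2 day 0 wild type libraries, in each of the 12 libraries (columns; WT wild type, KO knockout, d day, r replicate). Differences beyond 2.5 in size take the darkest colour; the day 3 columns are blue for most rows, with Ankrd37, Vegfa, Egln3, Bnip3, Ndrg1 and Pfkp among the darkest.

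Between days 0 and 3, 27 of the 37 tested members fell and 4 rose in the wild type, where 30.2% of all 12472 genes tested fell and 25.5% rose at an adjusted p under 0.05. In the knockout 19 fell and 4 rose, where 28.0% of all genes fell and 24.6% rose. The median log2 fold change of the members was -0.65 in the wild type and -0.41 in the knockout, and that of all genes was -0.02 in each. In bulk RNA, fewer cells of a type and less RNA per cell cannot be told apart. The pluripotency markers moved with this step, from the day 0 sums above to 1467 FPKM in both wild type libraries and to 1739 and 1864 in the knockout libraries, and their part in the result was not tested.

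The 6 largest falls to day 3 were, in both genotypes, those of the hypoxia-induced genes Ankrd37, Vegfa, Egln3, Ndrg1 and Bnip3 and of the enzyme Pfkp. Ankrd37, an ankyrin repeat gene known as a HIF target, had 35.3 and 41.8 FPKM in the wild type at day 0 and 4.61 and 5.97 at day 3. In the knockout it had 39.8 and 37.7, then 6.12 and 6.98. Its log2 fold changes were -2.66 (SE 0.27, adjusted p = 6.75e-05) and -2.40 (SE 0.27, adjusted p = 0.000149), and no day 3 library overlapped a day 0 library. Vegfa, the growth factor of blood vessels, went from 32.1 and 26.7 FPKM to 4.15 and 4.08 in the wild type, and from 21.2 and 21.4 to 7.33 and 7.27 in the knockout. Its log2 fold changes were -2.57 (SE 0.28) and -1.43 (SE 0.28). At day 3 both knockout libraries held more Vegfa than both wild type libraries, although at day 0 they held less. The difference between the 2 falls was 1.14 (SE 0.39) and did not pass the test (adjusted p = 0.548). Fitted by limma without the day 6 libraries, it had an SE of 0.12 and was called (adjusted p = 0.0323), where 0.238% of all genes were called.

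Egln3, the hydroxylase that is itself strongly induced by hypoxia, had 39.1 and 34.9 FPKM at day 0 and 5.72 and 7.17 at day 3 in the wild type. The knockout had 22.4 and 21.9, then 6.35 and 6.38. It thus fell from a lower start in the knockout to a level that overlapped that of the wild type, with log2 fold changes of -2.36 (SE 0.30) and -1.65 (SE 0.30). Ndrg1, a stress-responsive gene of differentiation, went from 13.2 and 15.4 FPKM to 1.94 and 2.54 in the wild type and from 9.44 and 7.27 to 2.49 and 2.64 in the knockout, log2 fold changes of -2.24 (SE 0.39) and -1.38 (SE 0.39). The knockout fall of Ndrg1 did not pass the test without knockout replicate 1 of day 0 (adjusted p = 0.0889), or without knockout replicate 1 (0.0703) or replicate 2 (0.0606) of day 3. Bnip3, which directs mitochondria to autophagy, went from 121 and 108 FPKM to 25.0 and 28.6 in the wild type. In the knockout it went from 86.5 and 81.0 to 25.2 and 19.5, and the log2 fold changes were -2.06 and -1.87 (SE 0.17 each).

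Of the glycolytic enzymes, 11 of 15 fell in the wild type and 9 of 15 in the knockout. The largest fall was that of Pfkp, the platelet form of phosphofructokinase, the step that commits sugar to glycolysis. Pfkp had 103 and 99.7 FPKM at day 0 and 20.5 and 25.4 at day 3 in the wild type, and 81.1 and 80.3, then 26.6 and 26.6 in the knockout. The log2 fold changes were -2.11 and -1.57 (SE 0.12 each). The muscle form Pfkm rose in the same step, by 0.62 and 0.36 on the log2 scale (SE 0.11 each). Hk2, the hexokinase that traps glucose in the cell, fell by 1.36 and 1.32 (SE 0.13 each), and Pgk1 by 1.01 and 1.04 (SE 0.14 each). Gapdh did not pass the test in either genotype (log2 fold changes of -0.20 and -0.06, SE 0.08 each).

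In the lactate and pyruvate branch the 2 lactate dehydrogenases moved apart. Ldha fell by 0.60 and 0.52 on the log2 scale (SE 0.14 each) in wild type and knockout, and Ldhb, the form favoured in oxidative tissues, rose by 1.14 and 0.89 (SE 0.22 each). Pdha1, a subunit of pyruvate dehydrogenase, and Mpc1 and Mpc2, which form the mitochondrial pyruvate carrier, fell in both genotypes. Of the 4 carriers at the cell surface, Slc2a1 (log2 fold change -0.47) and Slc2a3 (-0.54), SE 0.12 each, fell in the wild type. In the knockout their log2 fold changes of -0.31 and -0.23 did not pass the test, and 0 of the 4 were called. Slc16a1 and Slc16a3, which carry lactate, passed in neither genotype. Hif1a itself rose, by 0.79 in the wild type and 0.60 in the knockout (SE 0.08 each), while 7 of the 8 other hypoxia targets tested fell in the wild type and 4 of 8 in the knockout.

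Between days 3 and 6 most members moved back. In the wild type 24 of 37 rose and 4 fell, where 17.4% of all genes rose and 18.4% fell. In the knockout 27 rose and 5 fell, where 29.2% of all genes rose and 29.9% fell. The median log2 fold change of the members was 0.80 in the wild type and 1.01 in the knockout, against -0.01 and -0.00 over all genes. All 4 carriers and all 8 tested hypoxia targets rose in both genotypes, as did Egln1 and Egln3. Fitting only the 4 wild type libraries of days 3 and 6 called 0 members and 0.211% of all genes. Of 7 tested mesoderm markers, 6 rose in the wild type and 7 in the knockout in this step, from sums of at most 3.07 FPKM in any day 3 library to the day 6 sums given above. Their part in the result was not tested.

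Ndrg1 had the largest rise. It went from the day 3 values above to 7.92 and 23.6 FPKM in the wild type and to 23.3 and 30.1 in the knockout, log2 fold changes of 2.20 and 2.95 (SE 0.39 each). Egln1, the main oxygen-sensing hydroxylase, had 10.7 and 10.9 FPKM at day 3 and 33.1 and 60.9 at day 6 in the wild type, and 10.7 and 10.6, then 54.4 and 58.8 in the knockout. Its log2 fold changes were 1.96 and 2.30 (SE 0.22 each), and its day 6 level lay above that of day 0 in every library. Egln3 reached 14.8 and 34.7 FPKM in the wild type and 32.7 and 34.5 in the knockout, with log2 fold changes of 1.68 and 2.23 (SE 0.30 each). Ddit4, an inhibitor of mTOR signalling, went from 21.9 and 20.0 FPKM to 71.6 and 129 in the wild type and from 23.3 and 22.3 to 101 and 108 in the knockout, a log2 fold change of 2.15 in each (SE 0.23).

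Vegfa rose to 14.6 and 31.4 FPKM in the wild type and to 30.3 and 38.3 in the knockout, with log2 fold changes of 2.14 and 2.08 (SE 0.28 each). Ankrd37 rose to 17.6 and 36.3 FPKM in the wild type and to 27.7 and 26.2 in the knockout, with log2 fold changes of 2.08 and 1.89 (SE 0.27 each). In each of these 6 genes the day 6 libraries lay above all day 3 libraries of their genotype, and wild type replicate 1 was the lowest of the 4 day 6 libraries. P4ha1 and P4ha2, the catalytic subunits that hydroxylate collagen, rose by 1.59 and 1.18 on the log2 scale in the wild type and by 2.07 and 2.05 in the knockout.

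Of the glycolytic enzymes 9 of 15 rose in the wild type and 12 of 15 in the knockout. Pfkl, the liver form of phosphofructokinase, rose by 1.10 and 1.39 (SE 0.10 each), Pgk1 by 1.23 and 1.28 (SE 0.14 each) and Tpi1, triose phosphate isomerase, by 0.98 and 1.23 (SE 0.09 each). Ldha rose by 1.04 and 1.36 (SE 0.14 each). Ldhb, Hif1a, Pdk1 and Mpc1 fell in both genotypes. Pdk1, the kinase that shuts pyruvate dehydrogenase and a known HIF target, thus did not follow the other hypoxia-induced genes: it fell by 0.60 in the wild type and by 0.72 in the knockout (SE 0.12 each). Over both steps, 14 members fell and then rose in both genotypes. They were Hk2, Gpi1, Pfkl, Aldoa, Tpi1, Pgk1, Pgam1, Pkm, Ldha, Bnip3, Ankrd37, Vegfa, Egln3 and Ndrg1. Ldhb and Hif1a rose and then fell in both. The share of all genes with either pattern was not counted, so these counts have nothing to be set against. Both steps use the same day 3 libraries, so the 2 calls of a gene are not separate evidence.

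**Figure D2:**
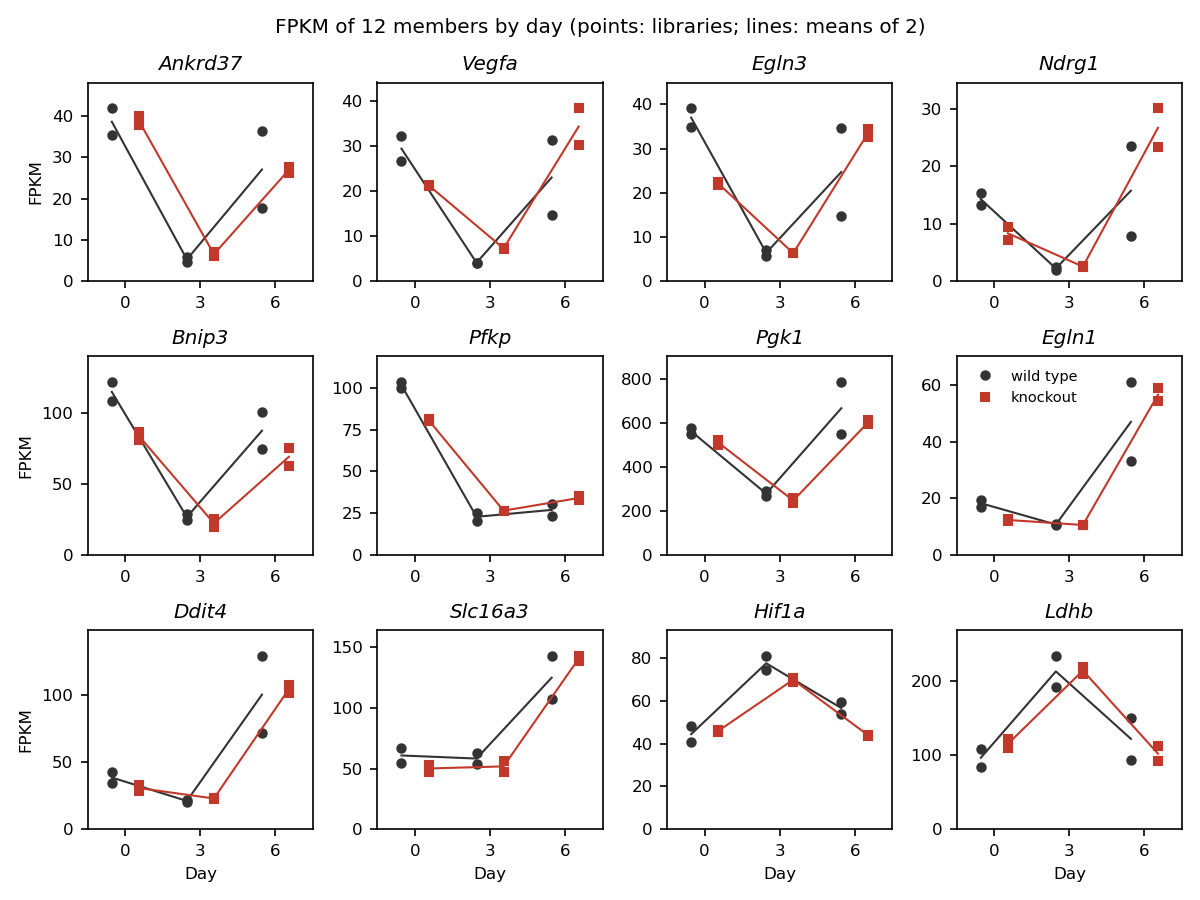
FPKM (linear axes from 0) of 12 members at days 0, 3 and 6 in the wild type (black circles) and knockout (red squares) embryoid body series. Each point is a library and lines join the means of 2 libraries. Ankrd37, Vegfa, Egln3, Ndrg1, Bnip3 and Pgk1 are lowest at day 3 and Hif1a and Ldhb highest; at day 6 the wild type libraries of Vegfa (14.6 and 31.4 FPKM) lie far apart.

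Day 6 was also compared with day 0, a comparison chosen after the values were seen. In the wild type 12 members were higher at day 6 and 7 lower, where 31.5% of all genes were higher and 35.4% lower. In the knockout 19 were higher and 7 lower, where 35.5% and 37.5% of all genes were. Of the 37 members the 12 lie near the share of all genes, the 19 above it and both counts of 7 below it. In both genotypes the 7 that fell were Hk1, Hk2, Pfkp, Pdk1, Mpc1, Mpc2 and Pdha1, that is 3 of the 15 glycolytic enzymes and 4 of the 7 genes of the lactate and pyruvate branch. Mpc1 fell most in the wild type, from 27.8 FPKM in both libraries to 6.33 and 5.47 (log2 fold change -2.06, SE 0.09). Egln1 (1.25 in the wild type and 2.10 in the knockout), Ddit4 (1.31 and 1.74), P4ha2 (1.23 and 2.34) and Slc16a3 (1.02 and 1.48) ended above day 0, while Ankrd37 and Bnip3 ended at log2 fold changes between -0.28 and -0.58 that did not pass the test.

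At day 0 the knockout differed from the wild type in 1 member, Mpc1, where 0.152% of all genes tested fell and 0.216% rose. Mpc1, the carrier subunit at chromosome 17, 8283787 to 8297667 (mm10), had 27.8 and 27.8 FPKM in the wild type and 15.5 and 18.0 in the knockout. The log2 fold change was -0.70 (SE 0.09, adjusted p = 0.0257). Its partner Mpc2 had overlapping libraries, 8.10 and 11.4 FPKM against 11.5 and 10.5. The call on Mpc1 was lost without wild type replicate 1 (adjusted p = 0.0905), wild type replicate 2 (0.0610) or knockout replicate 1 (0.169), and with only these 4 libraries fitted (0.0582), with log2 fold changes between -0.60 and -0.71.

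The other members at day 0 leaned the same way without passing the test. Of 37 members, 25 had both knockout libraries below both wild type libraries and 4 had both above, where 25.5% and 24.3% of all genes had. The median log2 fold change of the members was -0.20, with 29 of 37 below 0, and that of all genes was -0.00. All 7 tested hypoxia targets other than Ankrd37 were on that side, at log2 fold changes from -0.32 to -0.72. Bnip3 had 121 and 108 FPKM in the wild type and 86.5 and 81.0 in the knockout. Egln3 and Ndrg1, with the values given above, differed by -0.72 each (SE 0.30 and 0.39, adjusted p = 0.320 and 0.436). Ankrd37, with 35.3 and 41.8 against 39.8 and 37.7 FPKM, had a log2 fold change of 0.01 (SE 0.27).

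The calls at day 0 differed with the libraries fitted. With only the 4 day 0 libraries 0 members and 0.238% of all genes were called. Without the day 6 libraries 6 members were lower in the knockout at day 0, namely Mpc1, Egln3 (adjusted p = 0.0221), Egln1 (0.0204), Vegfa (0.0416), Ndrg1 (0.0446) and P4ha1 (0.0451), and 0 were higher, but the share of all genes called also rose, from 0.369% to 4.01%. Pluripotency markers leaned the same way as the members at day 0: 0 of 8 were called, but their median log2 fold change was -0.22. Of these markers Nanog, Esrrb, Zfp42, Klf4 and Tdgf1 were lower in both knockout libraries than in both wild type libraries. Dppa5a, with 1376 and 1412 FPKM in the wild type and 1608 and 1605 in the knockout, was higher, so that the sums overlapped. Their part in the members' differences was not tested.

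At day 3 the knockout was higher in 1 member, Hk1, where 1.12% of all genes rose and 0.0722% fell. Hk1 encodes the hexokinase of most tissues and lies on chromosome 10 from 62268855 to 62379920. It had 7.57 and 7.25 FPKM in the wild type and 14.9 and 19.0 in the knockout, a log2 fold change of 1.08 (SE 0.14, adjusted p = 0.0122). In the wild type Hk1 had fallen from 18.3 and 13.4 FPKM at day 0, a log2 fold change of -0.99 (SE 0.14), while the knockout kept 15.7 and 15.3 at day 0 and the day 3 values just given (0.11, SE 0.14). The difference between the 2 steps, 1.10 (SE 0.20), had an adjusted p of 0.197. Hk2 overlapped between genotypes at day 3, with 44.5 and 39.1 against 45.0 and 43.0 FPKM. The call on Hk1 was lost without wild type replicate 1 (adjusted p = 0.0802), wild type replicate 2 (0.110) or knockout replicate 2 (0.133), with log2 fold changes from 0.92 to 1.11.

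The remaining members at day 3 centred on 0, with a median log2 fold change of -0.01 over the 37. Of them 8 had both knockout libraries above and 10 both below, where 29.0% and 31.3% of all genes did. After Hk1 and the uncertain Eno1 (0.71, SE 0.45), Vegfa was the largest, at 0.70 (SE 0.28, adjusted p = 0.291). It was called without the day 6 libraries (adjusted p = 0.0103) and with only the 4 day 3 libraries fitted (0.0299). Tpi1 had 173 and 191 against 199 and 180 FPKM, and Pkm 1022 and 1038 against 1066 and 1001, so these differed by less than the spread between replicates.

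At day 6, 4 glycolytic enzymes were higher in the knockout and Hif1a was lower, where 17.9% of all genes rose and 16.2% fell. The counts of 4 and 1 in 37 lie below those shares. Eno2, on chromosome 6 from 124760053 to 124769673, had 2.87 and 4.16 FPKM in the wild type and 6.73 and 7.66 in the knockout, a log2 fold change of 0.87 (SE 0.14, adjusted p = 0.00283). Gpi1, the isomerase after hexokinase, had 166 and 201 against 225 and 222 FPKM (0.29, SE 0.08, adjusted p = 0.0265). Tpi1 had 332 and 393 against 430 and 462 FPKM (0.30, SE 0.09, adjusted p = 0.0350). Pkm had 1292 and 1368 against 1560 and 1458 FPKM (0.18, SE 0.06, adjusted p = 0.0482). In these enzymes the knockout libraries lay above both wild type libraries. Hif1a, on chromosome 12 from 73901324 to 73947554, had 59.3 and 53.9 FPKM in the wild type and 44.0 and 43.7 in the knockout (-0.36, SE 0.08, adjusted p = 0.0134).

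**Figure D3:**
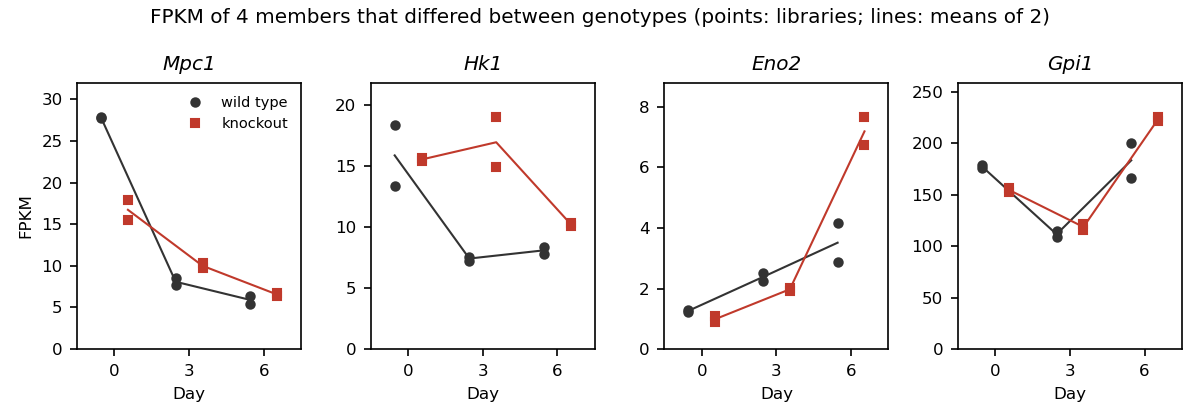
FPKM (linear axes from 0) of Mpc1, Hk1, Eno2 and Gpi1 at days 0, 3 and 6 in wild type (black circles) and knockout (red squares); each point is a library and lines join the means of 2 libraries. Mpc1 differs between genotypes at day 0 (27.8 and 27.8 against 15.5 and 18.0 FPKM), Hk1 at day 3, and Eno2 and Gpi1 at day 6.

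The hypoxia targets did not pass the test at day 6, and 6 of the 8 had log2 fold changes above 0. Ndrg1 stood at 0.89 (SE 0.39, adjusted p = 0.103), P4ha2 at 0.69 (SE 0.26, adjusted p = 0.0698) and Vegfa at 0.64 (SE 0.28, adjusted p = 0.104), and Bnip3 at -0.32 (SE 0.17, adjusted p = 0.162). The median over the 37 members was 0.13, and over all genes 0.02. Of the members 10 had both knockout libraries above both wild type libraries and 3 had both below, where 34.4% and 29.3% of all genes did. The calls at day 6 are sensitive to the processing. With trends on GC content and length removed, 1 member was higher (Eno2) and 0 lower, where 17.0% of all genes were called, and Hif1a stood at -0.037 and Pkm at -0.030. Fitting only the 4 day 6 libraries called 0 members and 0.925% of all genes, while Eno2 was called in the other 10 of its 11 alternatives. Of 11 alternatives each, Hif1a kept its day 6 call in 6, Gpi1 and Tpi1 in 5 each and Pkm in 1.

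**Figure D4:**
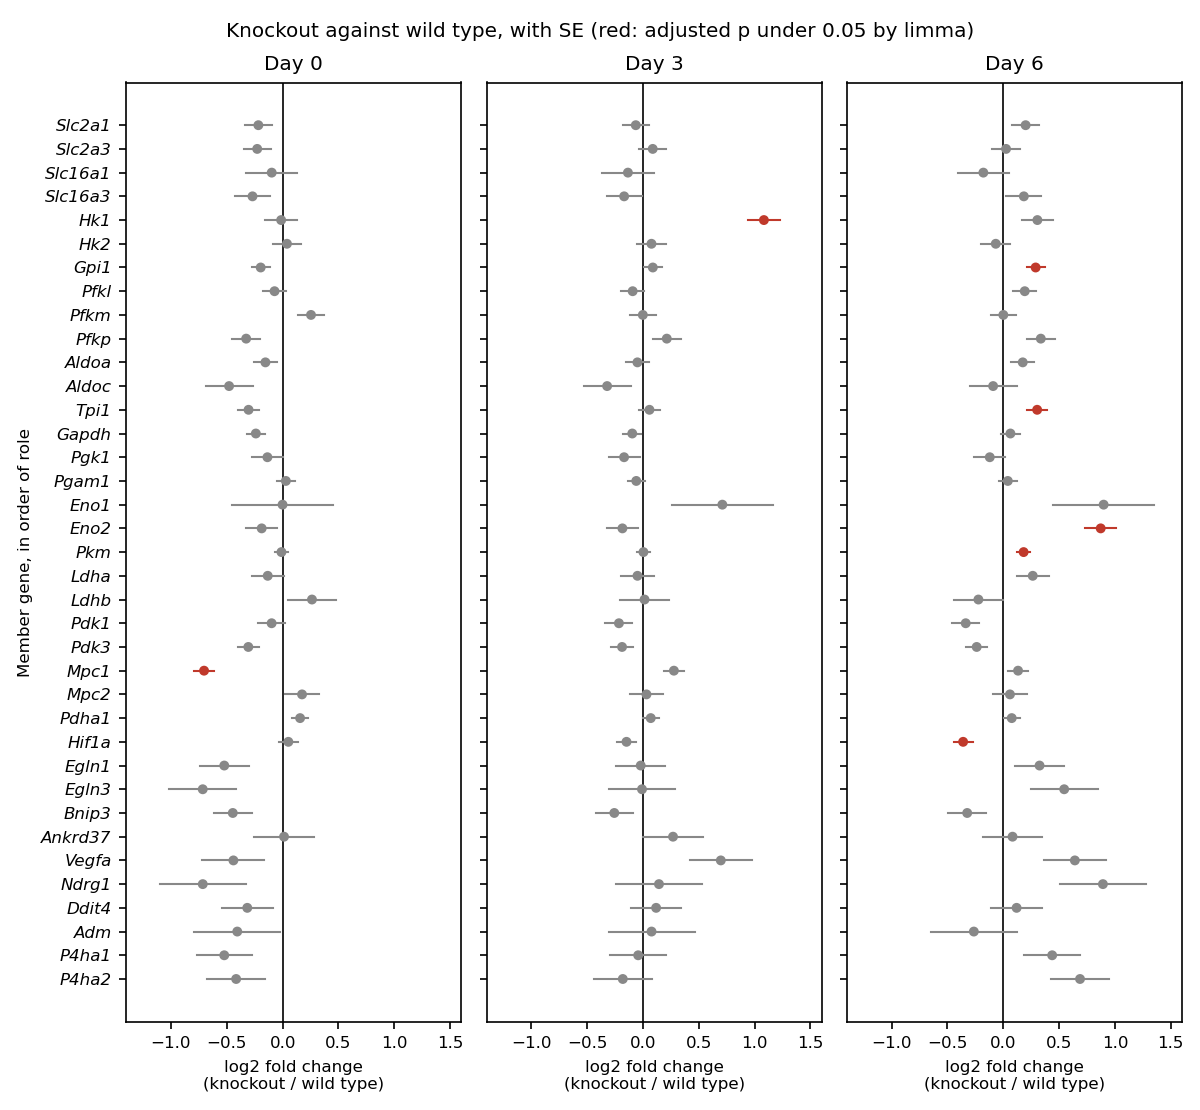
Log2 fold change of knockout over wild type, on the log2(FPKM + 1) scale, for the 37 tested members (rows, in order of role) at days 0, 3 and 6; bars are SE from limma, and red marks an adjusted p under 0.05. Most hypoxia targets (lower rows) lie left of 0 at day 0 and right of 0 at day 6 with wide bars; the members in red are Mpc1 at day 0, Hk1 at day 3, and Gpi1, Tpi1, Eno2, Pkm and Hif1a at day 6.

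Among the 6 groups, the wild type pair at day 6 had the widest spread of the members. Its replicate 2 held more than replicate 1 in 29 of 37 members, and over 1.5 times as much in 11, where 5.55% of all genes tested exceeded that ratio. The 11 were Adm, Aldoc, Ankrd37, Ddit4, Egln1, Egln3, Ndrg1, P4ha1, P4ha2, Slc16a1 and Vegfa. Adm, at 1.29 and 5.22 FPKM, had the largest ratio, 4.04, and Ndrg1, at 7.92 and 23.6, the next. In the knockout pair at day 6, 0 members were over 1.5 times higher in replicate 2 and 1, Eno1, was over 1.5 times lower. The 9 other hypoxia targets summed to 217 FPKM in wild type replicate 1 and 382 in replicate 2, with the knockout libraries at 301 and 345 between them.

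The same 2 wild type libraries differed in cell type markers. Replicate 1 had 883 FPKM summed over the pluripotency markers and replicate 2 had 536, against 655 and 309 in the knockout. Neural progenitor markers summed to 135 and 76.0 in the wild type and 64.8 and 27.9 in the knockout, and those of blood and endothelium to 11.8 and 52.4 and to 61.9 and 101. Between genotypes at day 6, 7 of 7 tested mesoderm markers rose and 6 of 8 neural markers fell. The part of these markers in the members' differences was not tested. Without wild type replicate 2, 15 members were higher in the knockout and 3 lower, where 39.0% of all genes were called, with Ndrg1 at 1.62 and Egln3 at 1.13 on the log2 scale. Without wild type replicate 1, 1 member was higher (Eno2, 0.67) and 2 were lower (Pgk1 and Adm), where 20.5% of all genes were called, and Ndrg1 stood at 0.16 and Egln3 at -0.04. Of the 8 hypoxia targets 7 were above 0 without replicate 2 and 3 without replicate 1. Without knockout replicate 1 or replicate 2 of day 6, 3 and 2 members were called, where 34.2% and 16.2% of all genes were. In each of these fits the lone library is assumed to vary like the other groups.

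**Figure D5:**
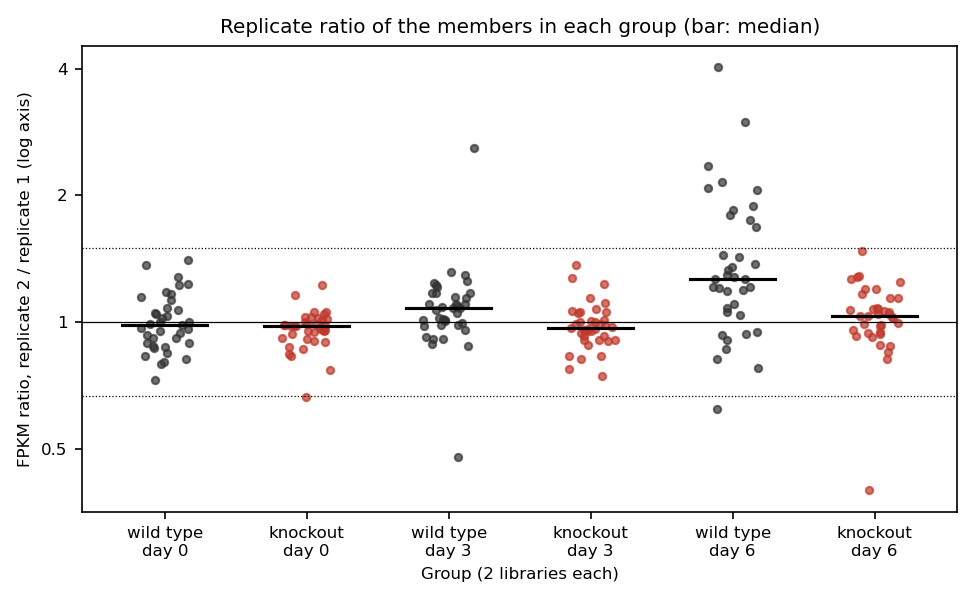
Ratio of FPKM in replicate 2 over replicate 1 (log axis) for the 37 tested members in each of the 6 groups; points are genes, bars medians, and dotted lines mark 1.5-fold in either direction. The wild type pair at day 6 has a median ratio of 1.27 and 11 members above the upper dotted line; the other groups have medians from 0.967 to 1.08.

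Whether the knockout difference itself changed between days was tested with interaction terms. Between days 0 and 3, 0 of 37 members were called by limma and 6 had an unadjusted p under 0.05, where 0.0401% of all genes were called and 7.67% had such an unadjusted p. Mpc1 was the nearest, with an interaction of 0.98 (SE 0.13, adjusted p = 0.0508). Without the day 6 libraries Mpc1 (adjusted p = 0.0416) and Vegfa (0.0323) were called, where 0.238% of all genes were called. Between days 3 and 6, Eno2 was called (1.06, SE 0.20, adjusted p = 0.0275), where 1.30% of all genes were called in that direction. Eno2 rose by 1.46 in the knockout, and its 0.40 in the wild type did not pass the test (adjusted p = 0.0503). Between days 0 and 6, a test chosen after the values were seen, 5 members were called and all were positive, where 5.28% of all genes were. They were Mpc1 (0.84, SE 0.13, adjusted p = 0.00749), Eno2 (1.06, SE 0.20, adjusted p = 0.0147), Tpi1 (0.61, SE 0.13, adjusted p = 0.0242), Gpi1 (0.49, SE 0.12, adjusted p = 0.0329) and Pfkp (0.66, SE 0.17, adjusted p = 0.0437). The genotype comparisons and these interactions share libraries, so they are not separate evidence. Between days 0 and 6, Mpc1 kept its call in all 16 of its alternatives, Eno2 in 12, Tpi1 and Gpi1 in 8 each and Pfkp in 5; between days 3 and 6, Eno2 kept it in 8 of 16.

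The mirrored change between days 0 and 6 can be read from the levels. Tpi1 went from 279 and 292 FPKM to 332 and 393 in the wild type and from 236 and 226 to 430 and 462 in the knockout. Gpi1 went from 179 and 176 FPKM to 166 and 201 in the wild type and from 157 and 153 to 225 and 222 in the knockout. Both enzymes were thus below the wild type libraries at day 0 and above them at day 6. Mpc1 was called at day 0 and not at day 3 or day 6, with day 6 values of 6.33 and 5.47 FPKM in the wild type and 6.40 and 6.70 in the knockout. The hypoxia targets had interactions above 0 in 8 of 8, from 0.07 for Ankrd37 to 1.61 for Ndrg1 (SE 0.54, adjusted p = 0.0843), with 0 called. Without wild type replicate 1 of day 6, 5 of 8 were above 0, with Ankrd37 at -0.43, Adm at -0.58, Bnip3 at -0.09 and Ndrg1 at 0.87.

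Other genes of both pathways, on lists that leave out the members, were counted in the same way. Of 32 tested genes of glycolysis, the pentose phosphate path and pyruvate use, 0 differed between genotypes at day 0 or day 3, and 4 were higher and 4 lower in the knockout at day 6, where 17.9% and 16.2% of all genes were. Of 47 tested genes of the hypoxia response, 0 differed at day 0, 2 were higher at day 3, and 5 were higher and 7 lower at day 6. At day 6 the counts of both lists lie below the shares of all genes. The 2 at day 3 were Ak4, a mitochondrial adenylate kinase, with 7.67 and 7.46 against 13.3 and 15.2 FPKM (0.83, SE 0.09, adjusted p = 0.00862), and Hmox1, heme oxygenase, with 43.3 and 44.7 against 52.7 and 57.3 FPKM (0.31, SE 0.06, adjusted p = 0.0468). Ak4 lost its call without knockout replicate 2 (adjusted p = 0.0883), wild type replicate 1 (0.0598) or wild type replicate 2 (0.0591), and Hmox1 when any 1 of the 4 day 3 libraries was left out. Of those called at day 6 the largest changes were in Cited2, a competitor of HIF for its coactivator (0.85, SE 0.28), Tfrc, the transferrin receptor (-0.80, SE 0.11), Arnt2, a partner subunit of HIF (-0.69, SE 0.16), and Pgls, of the pentose phosphate path (0.61, SE 0.11). Of 11 alternatives, Tfrc was called in 10, Pgls in 9, Arnt2 in 8 and Cited2 in 5. At day 3, Ak4 was called in 9 of its 12 alternatives and Hmox1 in 4 of 12.

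The same lists were followed over the days. From day 0 to day 3, where 30.2% of all genes fell and 25.5% rose in the wild type and 28.0% and 24.6% in the knockout, 24 of the 47 hypoxia genes fell and 9 rose in the wild type, and 21 fell and 9 rose in the knockout. From day 3 to day 6, where 17.4% of all genes rose and 18.4% fell in the wild type and 29.2% and 29.9% in the knockout, 20 of the 47 rose and 8 fell in the wild type, and 25 rose and 9 fell in the knockout. Of the 32 other metabolic genes, 11 fell and 3 rose in the first step in the wild type and 12 fell and 3 rose in the knockout, and the fallen lie near the share of all genes in the wild type. In the second step 9 rose and 10 fell in the wild type, and 11 rose and 11 fell in the knockout. Their medians between days 3 and 6 were -0.02 and 0.03, against 0.32 and 0.43 for the hypoxia genes and 0.80 and 1.01 for the members.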

How the data were processed

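RNA sequencing libraries of 12 embryoid body samples were analysed. The authors deposited their values as FPKM, per the file headers. Per the labels' protocols, Trim Galore 0.4.1 removed adapters and TopHat2 2.0.13 aligned the reads to mm10; Cufflinks 2.2.1, Cuffdiff and HTSeq 0.6.1 also stand in the submitters' processing notes, and which of them made the values is not stated. The annotation used and strand handling are not given in the sources. The 92 spike-in rows, all at 0, were left out. Library medians spanned 0.00690 on the log2 scale, so the values had been scaled to one another. A table of stem cell libraries holds 6 libraries that match no labelled sample, and it was not used here.

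The tests, run in R 4.3.3 with limma 3.58.1, took log2(FPKM + 1) of the 12 libraries, fitted a mean for each group, moderated variances along a trend with level, and were two-sided, with Benjamini-Hochberg adjustment over the 12472 genes with a mean of at least 1 FPKM. An adjusted p under 0.05 is a call. Fold changes on this scale understate those of low genes. The fit was tested on simulated data. Depth was estimated from low values, of which 69.7% to 75.3% per library lay within 0.05 of a whole number of reads at the estimate. ChIP-seq was not analysed here.

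All members are described; those called between genotypes or in an interaction, and the 6 largest called changes of each step in time, are given by library. Other pathway genes are named if called at day 0 or 3, or among the 4 largest at day 6. The members and lists were chosen with earlier results of these data known. Alternatives were another pseudocount (0.1), no filter, rescaling, only the compared groups, a replicate block and library weights. Others were no day 6 libraries, removal of GC and length trends, and leaving out each library. A block by line was also run for the steps in time and the interactions.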

Additional observations from a re-analysis of the deposited data

Results flagged for a closer look

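The knockout difference of 8 genes changed between days by the interaction test of limma, each value being the log2 knockout difference at the later day minus that at the earlier day. Between days 3 and 6, Eno2 gained 1.06, Ak4 lost its day 3 difference (-0.84, SE 0.13, adjusted p = 0.0157) and Tfrc moved by -0.73 (SE 0.16, adjusted p = 0.0424). Between days 0 and 6, a comparison added after the values were seen, the interactions were 0.84 for Mpc1, 1.06 for Eno2, 0.61 for Tpi1, 0.49 for Gpi1, 0.66 for Pfkp, 0.46 for Hmox1 (SE 0.08, adjusted p = 0.0136) and -0.74 for Tfrc (SE 0.16, adjusted p = 0.0251). Ak4 had 18.3 and 22.2 FPKM in the wild type at day 6 and 19.8 and 20.3 in the knockout, so the libraries overlapped there. Tfrc had 93.0 and 79.5 FPKM in the wild type and 52.4 and 46.0 in the knockout at day 6, and 91.5 and 99.7 against 94.7 and 88.6 at day 3. Over 16 alternatives each, Tfrc kept its call in 6 between days 3 and 6 and in 9 between days 0 and 6, Ak4 in 12, Hmox1 in 12, and Tpi1 and Gpi1 in 8 each. All of these rest on the wild type and knockout pairs of day 6, and the libraries within each pair differed in cell type markers. Pluripotency markers summed to 883 and 536 FPKM in the wild type and to 655 and 309 in the knockout. Mesoderm markers summed to 15.0 and 183 in the wild type and to 334 and 496 in the knockout. The part of those markers in the interactions was not tested.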

How the results depend on the processing

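The counts of called members for the steps in time stayed within 1.5 times their main value under all alternatives run but one: with only the compared groups fitted, the wild type step from day 3 to day 6 went from 28 to 0. The cause was not tested. Between genotypes at day 0, 1 member was called, 0 with only the compared groups, 6 without the day 6 libraries, and 0 to 1 when 1 library was left out. At day 3 the count of 1 became 2 with library weights, with only the compared groups and without the day 6 libraries, and 0 to 1 when 1 library was left out. At day 6 the count of 5 became 1 with GC and length trends removed or with library weights, 3 with no filter, 0 with only the compared groups, and 2 to 18 when 1 library was left out, the 18 being without wild type replicate 2; Pkm reversed to -0.030 with GC and length trends removed (adjusted p = 0.753). The interaction between days 0 and 3 went from 0 to 1 with library weights, to 2 with only the compared groups or without the day 6 libraries, and to 0 to 1 when 1 library was left out. That between days 3 and 6 went from 1 to 0 with GC and length trends removed, with only the compared groups and with a block by line, and to 0 to 10 when 1 library was left out. That between days 0 and 6 went from 5 to 2 with GC and length trends removed, 3 with library weights, 1 with only the compared groups, and 1 to 18 when 1 library was left out. The share of all genes called moved with these counts. Between genotypes at day 6 it was 34.1%, 17.0% with GC and length trends removed, 16.1% with library weights, 20.7% with no filter, 0.925% with only the compared groups and 39.0% without wild type replicate 2. At day 3 it was 1.19%, 11.2% with library weights, 1.91% with only the compared groups and 4.51% without the day 6 libraries. For the interaction between days 0 and 6 it was 12.2%, 4.12% with GC and length trends removed, 5.91% with library weights, 2.31% with only the compared groups and 24.9% without wild type replicate 2. For that between days 3 and 6 it was 4.51%, 0.665% with the trends removed, 1.77% with only the compared groups, 1.48% with a block by line and 0.553% to 17.3% when 1 library was left out. For that between days 0 and 3 it was 0.0401%, 0.0802% with library weights and 0.238% with only the compared groups or without the day 6 libraries. The causes of these changes were not tested.

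With the replicate number as a block, day 6 calls numbered 6, with Pfkp and Pdk1 added and Pkm lost; the day 0 and day 3 counts stayed at 1. Replicate numbers mark different lines in the 2 genotypes, so the number was not taken as a pairing between genotypes. Within a genotype the same number can mark the same line on each day. The main fit did not use this for the steps in time or the interactions, and a block by line was run there only as an alternative. Deviations of same-numbered libraries correlated between -0.08 and 0.24 over the pairs of groups. The 0.24 was between wild type and knockout at day 6, and the next highest was 0.08. At day 6 replicate 2 of both genotypes had the lower pluripotency and neural marker sums and the higher mesoderm sum. A difference shared by replicate number at day 6 was not tested further. The 2 libraries per group and the spread at day 6 set the precision; depth is known only as an estimate.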
